A study of Mus musculus with 6 samples.

Results

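Copy number along mouse chromosome 4 from 60 to 86 Mb was examined in genomic DNA of 5 malignant mesotheliomas, tumours of the lining of the body cavities. The stretch was taken by position alone, as the non-control probes of the denser array that start between 60000000 and 85999999 in the mm7 build. It holds 1756 of the 235322 placed probes, and 1 gene inside it is not analysed here. The study used array comparative genomic hybridisation, in which tumour DNA labelled with Cy5 and reference DNA labelled with Cy3 compete for the same probes. It asked which imbalances recur in asbestos-induced mesotheliomas of Arf(+/-) mice, in which 1 of the Arf alleles is inactivated. The denser array measured ARF-104, ARF-112, ARF-128 and ARF-129, the sparser one ARF-110, and C57BL/6J DNA was the reference throughout.

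All 5 tumours form 1 group without untreated or normal tissue, so the only comparison between DNAs is with the reference. The DNA came from primary mesothelioma cells per the labels, which for ARF-104 name only the tumour. The genotype is stated for 4 mice while 5 tumours are titled, and the sources used here do not say which title lies outside the 4. They give neither the strain background of the mice nor their age. The sparser array carries 183 of the 1756 probes. ARF-128 was run on both designs and was counted as 1 tumour, by its denser array unless stated.

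Mouse chromosome 4 carries the Cdkn2a locus, which encodes the tumour suppressors p16Ink4a and p19Arf, a short distance beyond the distal end of the stretch. The stretch itself holds the major urinary protein genes, which are a large repeated family, a gene-rich interval with the haem enzyme gene Alad and TNF ligand genes, and then long neuronal genes spaced far apart. In array hybridisation a hemizygous loss lowers the ratio of every probe along the lost segment to a common level, so the length and the flatness of a step carry as much information as its depth. A log2 ratio of -1 would correspond to loss of 1 copy in every diploid cell, and 0.58 to gain of 1 copy. A loss in fewer cells and a smaller change per cell cannot be told apart in these ratios.

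The probes at the edges of the changes described below locate the steps and are printed first, from 5′ to 3′ as the deposited array file lists them. Capitals mark G and C, since base composition is a feature that all probes share closely: the median GC content was 36.7% both in the stretch and over the autosomes. The sources used here do not state the probes' strand. The first 4 probes lie on either side of the steps that the array of ARF-104 alone placed in Whrn and Mpdz; differences between tumours, given further on, moved both steps by a few probes.
Whrn, before the proximal step, chr4:62912421-62912480: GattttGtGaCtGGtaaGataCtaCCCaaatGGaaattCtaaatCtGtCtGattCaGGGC
Whrn, after the proximal step, chr4:62920497-62920556: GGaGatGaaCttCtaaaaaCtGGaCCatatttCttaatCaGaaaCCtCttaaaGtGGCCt
Mpdz, before the distal step, chr4:80797178-80797237: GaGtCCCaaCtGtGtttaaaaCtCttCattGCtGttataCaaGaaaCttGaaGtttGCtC
Mpdz, after the distal step, chr4:80803103-80803162: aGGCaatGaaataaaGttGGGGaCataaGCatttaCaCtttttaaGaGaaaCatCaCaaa

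The next pair are the first and last probes of the short loss of ARF-112, which the files assign to no gene.
First in the loss, chr4:70450481-70450540: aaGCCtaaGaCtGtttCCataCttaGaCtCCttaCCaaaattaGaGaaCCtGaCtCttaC
Last in the loss, chr4:71146505-71146564: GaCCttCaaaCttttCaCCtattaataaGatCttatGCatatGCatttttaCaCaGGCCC

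The last 4 are the middle of the 3 Alad probes, in a short stretch that was high in 4 tumours, and 3 neighbouring probes of Astn2 that were very low in ARF-129.
Alad, chr4:61948099-61948158: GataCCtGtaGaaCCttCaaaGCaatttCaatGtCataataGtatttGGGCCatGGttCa
Astn2, chr4:65488497-65488556: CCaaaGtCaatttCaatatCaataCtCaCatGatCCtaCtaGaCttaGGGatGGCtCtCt
Astn2, chr4:65496889-65496948: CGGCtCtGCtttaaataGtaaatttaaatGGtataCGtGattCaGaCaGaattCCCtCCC
Astn2, chr4:65508074-65508133: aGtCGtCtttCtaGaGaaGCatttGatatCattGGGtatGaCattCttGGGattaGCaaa

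Whether these probes lie in exons or introns was not examined, because no mm7 annotation was used here. The probes are short oligonucleotides of 45 to 60 bases spaced at a median of 9789 bp on the denser design and 44021 bp on the sparser one. Noise from probe to probe, estimated from neighbouring log2 ratios as an SD, ranged from 0.15 in ARF-110 to 0.78 in ARF-128, and was 0.43 on the sparser array of ARF-128. The median tumour signal of the probes in the stretch was between 4.17 and 11.5 times background. Probes deviated from their segment means in the same direction on different arrays: the correlation of these deviations was 0.80 between ARF-104 and ARF-112, 0.85 between ARF-112 and ARF-129 and 0.72 between ARF-104 and ARF-129 over at least 1755 probes. These 3 arrays were scanned on the same day. Between them and the denser array of ARF-128, scanned on another day, it ranged from 0.56 to 0.67. ARF-110 correlated with the denser arrays at 0.11 to 0.36 and with the sparser array of ARF-128 at 0.51, over 183 probes. Of the genes given with values below, Tnfsf15 and Tnfsf8 have 4 probes, Alad, Atp6v1g1, Tlr4, Slc31a2 and Tyrp1 have 3, and those with 1 are marked as such. On the sparser design, which measured ARF-110, Cntln has 6 and each of the others at most 3.

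The tumours differed in how they carried the stretch. Its segments were lower than the reference in ARF-129 from one border to the other, and in ARF-104 over most of the length, and it stayed nearer the reference in the other tumours. The mean log2 ratio over the probes was -0.56 in ARF-129 and -0.48 in ARF-104, whereas ARF-110 had -0.11, ARF-128 had -0.01 and ARF-112 had 0.04. The sparser array of ARF-128 gave -0.15. The mean over tumours was -0.22 ± 0.28 (SD, n = 5), below 0 in 4 of 5 tumours, and a two-sided exact permutation test that flips signs gave p = 0.1875. That test cannot go below 0.0625 with 5 tumours, so no set of 5 values could pass 0.05.

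Over the 5 tumours the difference between the stretch and the rest of chromosome 4 was within their spread. The rest averaged -0.46 in ARF-129 and -0.15 in ARF-104, while ARF-128 had -0.16, ARF-110 had -0.08 and ARF-112 had 0.02. The stretch minus the rest was -0.33 in ARF-104, -0.10 in ARF-129 and -0.03 in ARF-110, and it was positive in ARF-112, at 0.03, and in ARF-128, at 0.16. The mean difference was -0.06 ± 0.18 (SD, n = 5; exact sign-flip permutation test, p = 0.625). Without ARF-104 it was 0.01, on the other side of 0.

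**Figure D1:**
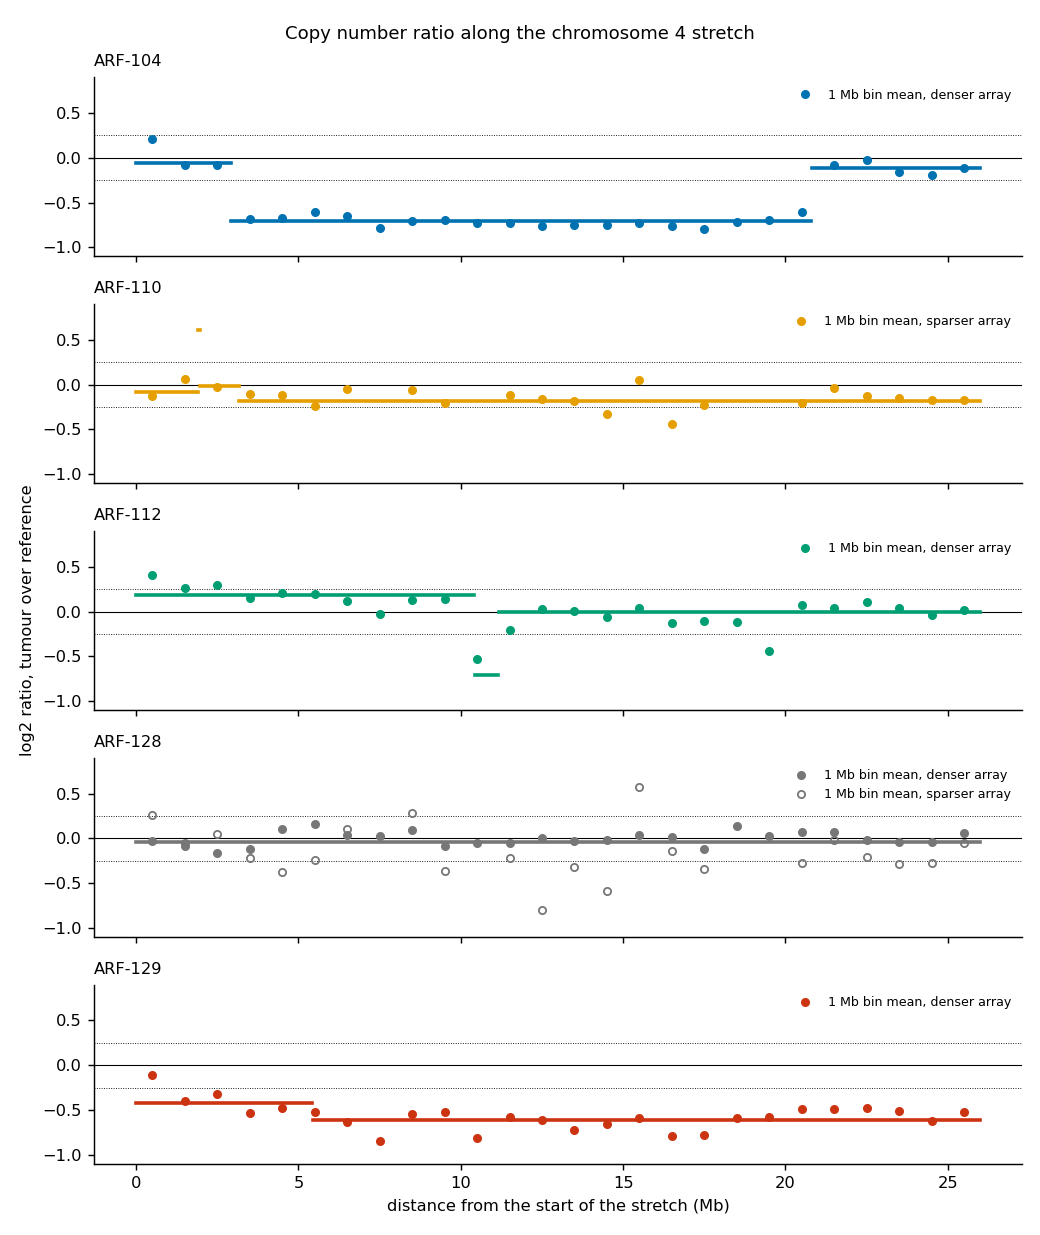
Mean log2 ratio of tumour over reference in each 1 Mb bin (points) and of each segment (bars) against the distance in Mb from the start of the stretch, with 1 panel per tumour; dotted lines mark the call levels of -0.25 and 0.25, and open points are the sparser array of ARF-128. ARF-104 steps down to -0.71 and back, ARF-129 is low throughout, and ARF-112 has a short low segment at -0.71.

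Segments, stretches of probes with a common level, were called lost at a mean of -0.25 or lower and gained at 0.25 or higher. In ARF-129 all 26 bins of 1 Mb were called lost, against 26.6% of its autosomal bins. In ARF-104 the count was 18 of 26, against 1.63% of autosomal bins. In ARF-112 it was 1 of 26 against 16.3%. No bin of the stretch was called lost in ARF-128, where the autosomal share was 1.84%, or among the 22 measured bins of ARF-110, where it was 3.95%. No bin was called gained in any of the 5 tumours. The bin from 70 to 71 Mb was called lost in 3 tumours, ARF-104, ARF-112 and ARF-129, while ARF-110 had no probe there and ARF-128 measured -0.05. No other bin of the stretch was called lost in more than 2. With normexp background correction, described below, no bin was lost in ARF-112 or ARF-129, and ARF-104 alone had any bin called lost.

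ARF-104 had a single interstitial loss that took up most of the stretch. On its array alone it ran from 62920497 to 80797237, a length of 17.9 Mb with 1107 probes, at a mean log2 ratio of -0.71 (SD over probes 0.38). The segment before it, up to 62912480, stood at -0.05, and the segment after it at -0.11, so both sides lay near the reference. The segment after it ran on to 88562735, to Mtap, the gene for the methionine salvage enzyme next to Cdkn2a, which places 7.76 Mb of uncalled DNA between the loss and that locus. The same interval measured -0.62 in ARF-129, -0.16 in ARF-110 (81 probes), 0.00 in ARF-112 and 0.01 in ARF-128. The sparser array of ARF-128 gave -0.22 over 81 probes. On the probes of both designs the denser array of ARF-128 gave -0.15, so its value depended on the set of probes. ARF-104 and ARF-129 were the lowest.

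The array of ARF-104 alone placed the steps in Whrn and Mpdz. Whrn encodes whirlin, a scaffold protein of hair cell stereocilia, and Mpdz a junction protein with many PDZ domains. The Whrn probe before that step had a ratio of -0.01 in ARF-104 and the next one -1.29, against 0.74 and -0.47 on the array of ARF-112 and -0.06 and -1.66 in ARF-129. The ratio dropped between these probes on all 3 arrays. Differences between tumours at the same probe cancel offsets common to both arrays, and their noise was 0.16 for ARF-104 minus ARF-112, against 0.36 and 0.39 for the arrays themselves. These differences were segmented in the same way, a choice made after seeing the data.

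The difference between ARF-104 and ARF-112 stepped from -0.31 to -0.81 between 62903831 and 62912421, within Whrn and 1 probe earlier than on the array alone. It stepped back from -0.72 to -0.14 between 80854663 and 80872908, beyond the last Mpdz probe. In the difference between ARF-104 and ARF-129 the same steps lay between 62920556 and 62933223, after the last Whrn probe, and between 80872967 and 80886596. By either difference the distal end lay beyond its place on the array of ARF-104 alone, and all 22 probes of Mpdz fell inside the loss. Mpdz measured -0.60 in ARF-104, -0.44 in ARF-129, -0.18 in ARF-110 (3 probes), 0.10 in ARF-112 and 0.17 in ARF-128. The sparser array of ARF-128 gave -0.79 on 3 probes, whereas the value of the denser array is a mean over all 22. The arrays were not compared over the same 3 probes. At the probe that starts at 80720858, which both designs carry, ARF-128 measured -1.38 on the denser array and -1.24 on the sparser one.

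**Figure D2:**
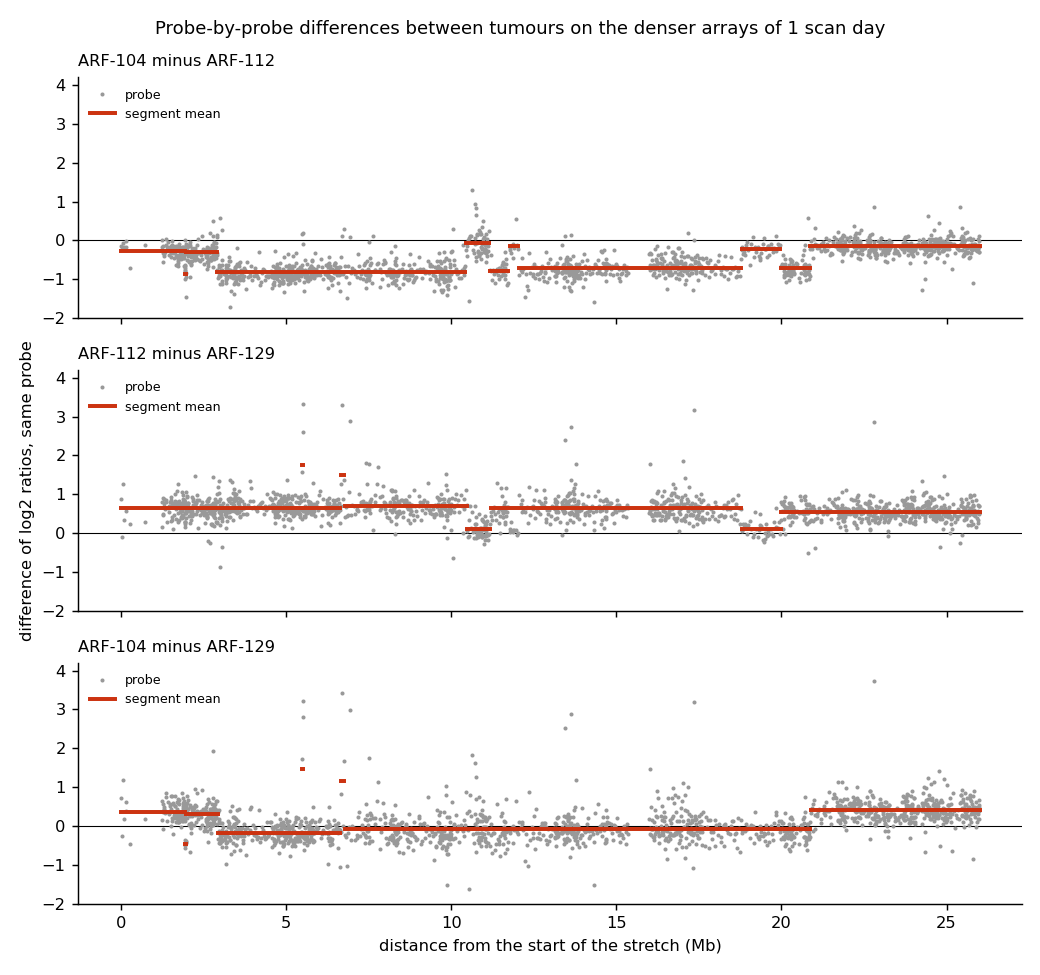
Difference of log2 ratios at the same probe between pairs of tumours (grey points) with segment means (red bars) against the distance in Mb from the start of the stretch. ARF-104 minus ARF-112 falls to -0.81 at the loss of ARF-104 and rises to -0.07 and -0.23 where ARF-112 is low too, and single points above 2 in the lower panels are probes at which ARF-129 is very low.

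ARF-112 carried short low stretches in a background at or above the reference. On its array alone, a level of 0.19 up to 70415848 was followed by a loss from 70450481 to 71146564, with 60 probes over 0.70 Mb at -0.71 (SD 0.47), and then by a level of -0.01. The 20 probes on each side averaged 0.09 in ARF-112. The same 60 probes averaged -0.84 in ARF-129, -0.78 in ARF-104 and -0.10 in ARF-128, and the sparser design has none of them. Relative to its own sides, ARF-112 was lower by -0.80, ARF-129 by -0.35, ARF-104 by -0.14 and ARF-128 by -0.11. The transcripts named there are AK083154 and BC006770, which the files give only by accession. BC006770 had 39 probes and measured -0.77 in ARF-129, -0.75 in ARF-104, -0.69 in ARF-112 and 0.00 in ARF-128, so ARF-128 stood apart from the other 3.

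The differences between tumours showed a further pair of low stretches in ARF-112 that its own array had not separated. The first spanned 71762606 to 72020438 (9 probes, 0.26 Mb) and averaged -0.66 in ARF-112, against 0.04 for the 40 probes beside it. It was separated in ARF-104 minus ARF-112 only, while ARF-112 minus ARF-129 ran across it as a single segment at 0.65. The second spanned 78799831 to 79941951 (37 probes, 1.14 Mb) and averaged -0.50, against 0.06 beside it. In ARF-104 and ARF-129 the inner and outer probes of these stretches differed by between -0.04 and -0.11. No named gene lies in either stretch. Elsewhere ARF-112 lay above ARF-129 by 0.56 to 0.70 on segments of over 90 probes, while over the short loss it lay above by 0.11 and over the stretch from 78799831 by 0.12.

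In ARF-129 both segments that span the stretch were called lost, although the 8 probes around Alad, described below, averaged 0.44. The segments stood at -0.42 up to 65426000 and at -0.62 from 65440538 onwards, a boundary within Astn2. Both continued outside the stretch, to 40481289 on one side and 93583826 on the other. The differences between tumours had no step at that boundary. ARF-112 minus ARF-129 was 0.64 up to 65460906 and 0.65 from 65518934, on either side of the low Astn2 probes described below. ARF-104 minus ARF-129 was -0.17 on both sides of them. The low level of ARF-129 depended on the processing. With normexp correction of the raw mean signals, the stretch averaged -0.10 in ARF-129 and no bin was called lost. ARF-104 then averaged -0.18 with 18 of 26 bins still lost. That alternative also left out the software's spatial detrending and dye normalisation, so the effect of background correction alone was not tested. It brought the SD of all autosomal probes of ARF-129 from 0.61 to 0.24, so ratios shrank over the whole array.

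Within that low background a few probes of ARF-129 were far lower. In the stretch, 29 of its 1755 probes lay below -2, a share of 1.65%, against 0.247% of its autosomal probes. The count was 9 of 1756 in ARF-128, whose array is the noisiest (0.513%, against 0.912% of its autosomal probes). It was 1 in ARF-104 (0.0569%, against 0.153%) and 1 in ARF-112 (0.0569%, against 0.111%). The level of -2 was set after seeing the data. Many of the 29 were low on the other denser arrays too, so the share does not count losses particular to ARF-129. A Kdm4c probe, for example, measured -2.85 in ARF-129, -2.62 in ARF-104, -2.57 in ARF-128 and -1.77 in ARF-112. The autosomal share also has another background, since 26.6% of the autosomal bins of ARF-129 were called lost, against all bins of the stretch. At 7 of the 29 the tumour signal was not well above background, so that the ratio is an upper bound. Outside Astn2, unnamed probes measured -3.43 at 66944048, -3.51 at 82804796 and at most -3.82 at 66693035 in ARF-129, where the other 3 tumours on the denser array measured between -0.70 and 0.21. A probe of Frmd3 was at most -3.58 in ARF-129, also a bound, against -1.06 in ARF-104, -1.17 in ARF-112 and -1.38 in ARF-128. Astn2, which encodes astrotactin 2, a membrane protein of migrating neurons, held 3 such probes in a row, from 65488497 to 65508133, at -2.11, at most -3.58 and at most -3.83. The latter 2 are among the 7 bounds, while the reference signal there was 9.32 and 8.76 times background.

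The other tumours did not share that depth at these 3 probes, but they did not all lie level with their neighbours. The mean of the 3 probes was at most -3.17 in ARF-129, and was -0.68 in ARF-112, -0.59 in ARF-104 and -0.59 in ARF-128. The 40 probes beside them averaged -0.44, 0.20, -0.65 and 0.27, respectively. Inner minus outer probes was thus at most -2.73 in ARF-129, and was -0.88 in ARF-112. It was -0.86 in ARF-128, and ARF-104 had 0.06. Over all 130 of its probes Astn2 measured -0.61 in ARF-104, -0.49 in ARF-129, -0.26 in ARF-110 (2 probes), 0.18 in ARF-128 and 0.22 in ARF-112.

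**Figure D3:**
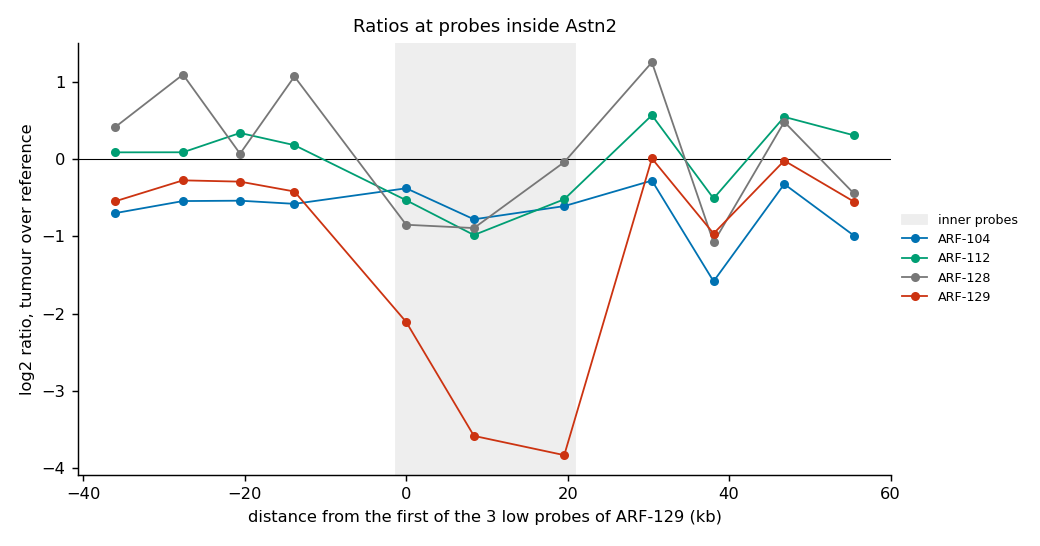
Log2 ratio at neighbouring Astn2 probes in the 4 tumours on the denser array against the distance in kb from the first of 3 low probes (shaded). ARF-129 drops to -3.83, where the tumour signal was not well above background, ARF-112 and ARF-128 are lower than at the probes beside, and ARF-104 is level.

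No segment of ARF-110 or ARF-128 in the stretch was called lost. In ARF-110 the level was -0.09 before 61902682 and -0.19 from 63170456, within the TNF ligand gene Tnfsf15, to beyond the distal end. The latter lay above the call level of -0.25, and at a level of -0.15 the share of bins called lost in ARF-110 was 81.8%. In ARF-128 a single level of -0.04 covered the stretch and ended at 86559056, past its distal border, and the sparser array gave -0.13. The only segment called gained in any tumour was a run of 5 probes in ARF-110 from 61916850 to 61955215, at 0.61, over Bspry, Hdhd3 and Alad.

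The gene values of Alad and Hdhd3 were higher than the reference in all 5 tumours. Alad encodes delta-aminolevulinate dehydratase, the second enzyme of haem synthesis, and Hdhd3 a haloacid dehalogenase-like protein. Alad is known to differ in copy number between inbred mouse strains. With 3 probes, Alad measured 1.44 in ARF-128, 1.16 in ARF-112, 0.81 in ARF-129, 0.80 in ARF-110 (2 probes) and 0.33 in ARF-104, and the sparser array of ARF-128 gave 0.79. The mean was 0.91 ± 0.42 (SD, n = 5; limma adjusted p = 0.0154). Hdhd3, with 1 probe, measured 1.18 in ARF-128, 1.09 in ARF-112, 0.81 in ARF-129, 0.71 in ARF-110 and 0.45 in ARF-104. Its mean was 0.85 ± 0.30 (limma adjusted p = 0.0121). ARF-104 was lowest at both.

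The probes around Alad separated ARF-104 from the others more sharply than the gene values did. The difference between ARF-104 and ARF-129 was 0.36 before 61926830 and 0.30 after 61958090, but -0.45 over the 8 probes from 61930627 to 61955215, with an SD over those probes of 0.07. Over these 8 probes, with 20 probes on each side, the inner mean exceeded the sides by 0.95 in ARF-128, 0.89 in ARF-129 and 0.67 in ARF-112, and by 0.12 in ARF-104. In ARF-110, with 4 inner probes, it exceeded them by 0.69. The inner mean of ARF-104 itself was -0.01, near the reference. The high stretch was thus 0.02 Mb long, began within Bspry, covered Hdhd3 and Alad and ended before Pole3, a DNA polymerase epsilon subunit gene, and stood 0.67 or more above its sides in 4 tumours. Normal DNA of these mice was not analysed here, so tumour-specific and inherited copies cannot be told apart.

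**Figure D4:**
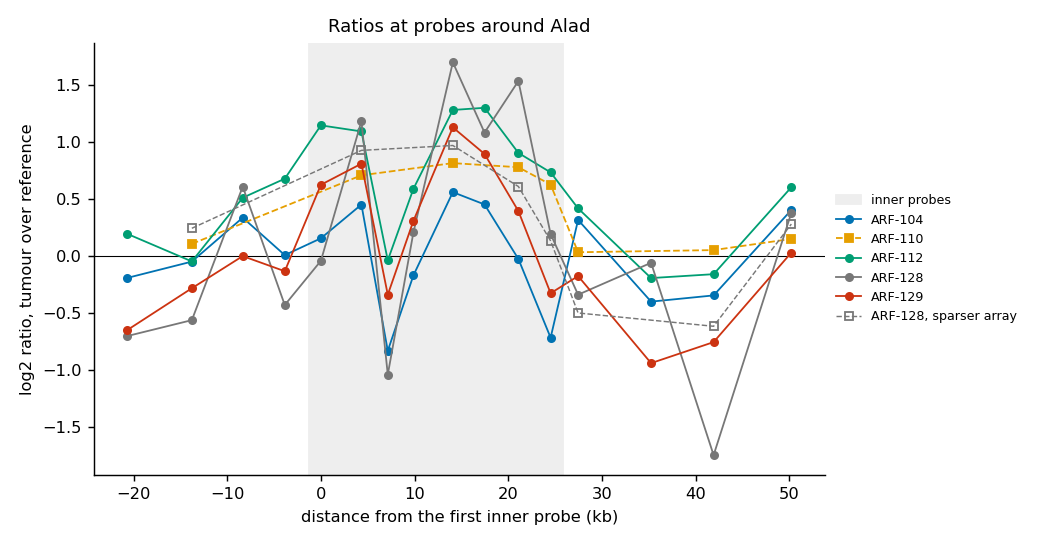
Log2 ratio at probes around Alad against the distance in kb from the first inner probe (shaded), with the sparser arrays as squares. The zigzag is shared by the arrays; ARF-129 lies above ARF-104 within the shading, by 0.45 on average, and below it by 0.30 to 0.36 on either side.

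Tested over tumours, no 1 Mb bin of the stretch passed. Of its 26 bins, 22 had a value in all 5 tumours, and limma called 0 lower and 0 higher at an adjusted p of 0.05, against 0.642% lower and 3.90% higher among all autosomal bins. At an unadjusted limma p under 0.05 there were 8 of 22, against 520 of 2179 among all autosomal bins, and the lowest adjusted p was 0.107. The lowest means over tumours were -0.42 at 76 Mb and -0.41 at 77 Mb. Using the sparser array of ARF-128, 3 bins were called lower (3.76% of all bins were), and 2 when scan day was a random block (2.89% of all).

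Among genes, 8 of the 71 tested were called lower (11.3%, against 6.68% of all genes tested) and 2 higher (2.82%, against 7.80%). The 2 higher genes were Alad and Hdhd3. The 8 lower ones were AK134680, Tnfsf8, Kif12, AK076794, BC039222, Atp6v1g1, Haus6 and 2310002L09Rik, with means from -0.86 to -0.36. The transcript AK134680 measured -1.95 in ARF-128, -0.76 in ARF-129, -0.63 in ARF-110, -0.50 in ARF-104 and -0.45 in ARF-112 on its single probe (limma adjusted p = 0.0317). Kif12, a kinesin motor gene with 1 probe, ranged from -1.12 in ARF-128 to -0.22 in ARF-112 (limma adjusted p = 0.0303). Both were below 0 in 5 of 5 tumours. With segment means in place of probe means AK134680 averaged -0.19 and Kif12 -0.07, and neither was called. Probe deviations were shared between arrays, as given above, and whether they entered the calls of genes with few probes was not tested. All 10 rest on 1 to 5 probes, 4 of them on a single probe. None of the 24 tested genes with 10 or more probes was called, although 23 of them lay below 0 on average, with a median of -0.23. No gene of the stretch was called lower without ARF-104, without ARF-112 or without ARF-129. Without ARF-110, when 107 could be tested, 16 were, against 10.8% of all genes tested. Without ARF-112 or without ARF-129 none of all genes passed in either direction, so Alad and Hdhd3 were not called there. A random block for scan day, or segment means in place of probe means, also left none called in the stretch.

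**Figure D5:**
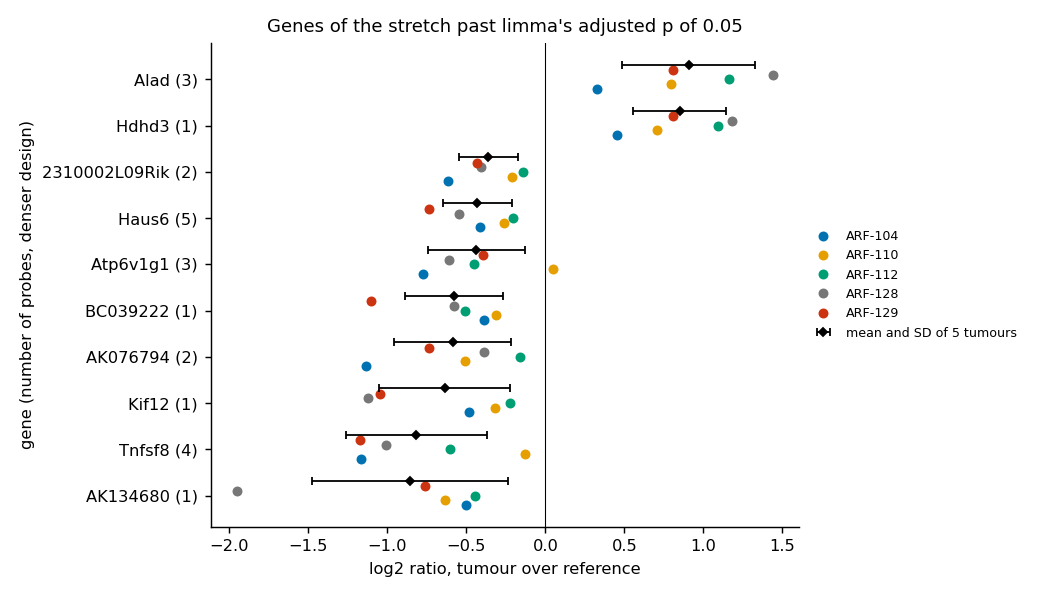
Log2 ratio of each of the 10 called genes in each tumour (coloured points), with the mean and SD over 5 tumours (black), and the number of probes on the denser design in brackets. Alad and Hdhd3 lie above 0 in every tumour, and of the lower genes only Atp6v1g1 has a tumour above 0, ARF-110.

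Gene groups by role gave few calls. Over all genes tested, 6.68% were called lower and 7.80% higher. Of 46 listed genes, 41 are named in the stretch, and the median over the region's 71 tested genes was -0.17, against -0.02 over all genes tested. Among the TNF ligands and immune regulators, 1 of 3 tested genes was lower and none higher, with a median of -0.51. Tnfsf8, the CD30 ligand, measured -1.17 in both ARF-104 and ARF-129, while ARF-128 had -1.01, ARF-112 had -0.60 and ARF-110 had -0.13, on 4 probes (3 in ARF-110), a mean of -0.82 ± 0.45 (SD, n = 5; limma adjusted p = 0.0193). The sparser array of ARF-128 gave -0.26, so its arrays disagreed by more than the SD over tumours. Tnfsf15, another TNF family ligand, was below 0 in 5 of 5 tumours, at -0.51 ± 0.41 (limma adjusted p = 0.0526). The endotoxin receptor gene Tlr4 averaged -0.21 and was above 0 in ARF-112, at 0.33.

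Among the genes listed for metal, haem and proton handling, 1 of 3 tested was lower and 2 were higher. The 2 higher ones were Alad and its neighbour Hdhd3, the haloacid dehalogenase-like gene. Both lie in the same high stretch of 0.02 Mb, so they are not separate changes. The lower one was Atp6v1g1, a subunit of the proton pump that acidifies vesicles (mean -0.44 on 3 probes, limma adjusted p = 0.0489). It measured -0.77 in ARF-104, -0.61 in ARF-128, -0.45 in ARF-112, -0.39 in ARF-129 and 0.05 in ARF-110. The sparser array of ARF-128 gave 0.005, and with that array the limma adjusted p was 0.0800. Atp6v1g1 was called under 6 of 15 alternatives. The copper transporter gene Slc31a1 had no probe on the sparser design and ranged from -0.27 to 0.34 over the other 4 tumours. Its neighbour Slc31a2 ranged from -1.03 in ARF-128 to 0.08 in ARF-112.

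Of the cell cycle and centrosome genes, 1 of 5 tested was lower, Haus6, a subunit of the augmin complex that nucleates spindle microtubules. It measured -0.74 in ARF-129 and -0.55 in ARF-128, then -0.41 in ARF-104, with ARF-110 at -0.26 and ARF-112 at -0.20, a mean of -0.43 (limma adjusted p = 0.0320), with 3 of its 5 probes inside the stretch. Cdk5rap2, which anchors microtubule nucleation at the centrosome, lay in the loss of ARF-104. Its 25 probes measured -0.62 in ARF-104, -0.51 in ARF-129, -0.27 in ARF-110, -0.01 in ARF-128 and 0.20 in ARF-112, and it was not called (limma adjusted p = 0.225). Cntln, a centriole gene beyond the loss, was below 0 in 5 of 5 tumours, from -0.73 in ARF-129 to -0.06 in ARF-112, and was not called.

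No gene of the matrix group passed among 5 tested, and the median was -0.16. Pappa, a secreted metalloproteinase that cleaves IGF binding proteins, measured -0.67 in ARF-104, -0.48 in ARF-129, -0.03 in ARF-110, 0.00 in ARF-128 and 0.18 in ARF-112 over 28 probes. Tnc, the gene of the matrix glycoprotein tenascin C, had the same order at its low end, with -0.60 in ARF-104 and -0.47 in ARF-129, and was above 0 in ARF-112, at 0.33. Col27a1, a fibrillar collagen gene just before the loss of ARF-104, measured 0.13 in ARF-104 and -0.11 in ARF-129.

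None of the 7 tested transcription and chromatin genes passed, with a median of -0.16. Nfib, a nuclear factor I transcription factor gene past the loss, measured -0.44 in ARF-129 and between -0.04 and 0.09 in the other 4. Bnc2, a zinc finger gene, was similar, at -0.58 in ARF-129 and from -0.15 to 0.01 elsewhere. Kdm4c, a histone demethylase gene inside the loss, measured -0.69 in ARF-104, -0.66 in ARF-129, -0.09 in ARF-110, 0.07 in ARF-128 and 0.11 in ARF-112. Kdm4c, inside the loss of ARF-104, was low in both ARF-104 and ARF-129, whereas at Nfib and Bnc2, beyond it, ARF-129 alone lay below -0.25.

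None of the 6 tested names of neuronal, junction and scaffold genes passed (median -0.24), and of the pigment and lipid genes the melanin enzyme gene Tyrp1 was tested and not called, at -0.10. The 3 tested plasma protein genes had a median of 0.19, and Orm2, an acute-phase glycoprotein gene with 1 probe, was above 0 in 5 of 5 tumours without being called (mean 0.30, limma adjusted p = 0.0760). The major urinary protein genes could not be tested, since none has a probe on the sparser design. Mup1, Mup3 and Mup20 have 1 probe each, and between tumours they ranged from -0.71 at Mup3 in ARF-129 to 0.60 at Mup3 in ARF-128. The first 1 Mb of the stretch, which holds Mup1, has 8 probes in all.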

How the data were processed

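Genomic DNA of 5 tumours was measured on 6 two-colour arrays. The deposited intensity of each spot in both channels came, per the file headers, from Agilent's Feature Extraction software with background subtraction, spatial detrending and linear dye normalisation. Its version was 8.5.1.1 for the sparser design, 9.5.3.1 for the denser array of ARF-128 and 9.1.3.1 for the others. Each deposited log10 ratio served as an alternative. No dyes were swapped. The mm7 build is in the header of 1 file, and probes of the sparser design were joined by name.

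Log2 ratios of the red over the green intensity were averaged over spots of the same probe, without control and outlier-flagged spots, and the median of autosomal probes was set to 0 on every array. Segments came from PELT, with a least-squares cost, 5 log n as penalty and 5 probes as the shortest segment. A gene's value is the mean of its probes. Of 112 gene names, 45 matched a GRCm38.p6 table by symbol, 10 by accession and 2 by synonym; 5 names with probes on other chromosomes were left out of gene counts. Bins and genes with values in all tumours were tested against 0 with limma 3.58.1 (eBayes, Benjamini-Hochberg over all of them), in R 4.3.3, which leaves out the reference's own spread. The labels do not state that each tumour came from its own animal, so p-values measure the spread between these samples. Alternatives were normexp (offset 50), both arrays of ARF-128, probe filters, centring, scan day as a block, segment means, call levels and leaving out each tumour. The number of arrays limits precision. Segmentation and limma were tested on simulated data. Genes were named from fixed lists, as those past limma's threshold, the extremes of each tumour and those at segment boundaries. The members and lists were chosen with earlier results of these data known. Other tools were Python 3.11.15, numpy 2.4.6, pandas 2.3.3, numba 0.67.0 and matplotlib 3.10.9.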

Additional observations from a re-analysis of the deposited data

Results flagged for a closer look

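In each of 41 results with 5 tumour values, the highest and the lowest tumour were compared with the nearest other tumour; chance marks about 1 in 20 such groups. Nfib was marked for ARF-129, which at -0.44 lay far below the other 4 tumours, and Bnc2 for ARF-129 at -0.58. Both genes lie past the distal end of the loss of ARF-104. AK134680, with 1 probe, was marked for ARF-128 at -1.95, where the sparser array of the same tumour gave -0.89.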

How the results depend on the processing

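The mean of the stretch kept its sign under all 13 alternatives, from -0.29 to -0.06, the latter with normexp. The stretch minus the rest of chromosome 4 ranged from -0.11 to 0.01 when a tumour was left out and turned positive without ARF-104 (0.0144). Bins called lower numbered 3 with the sparser array of ARF-128 and 3 on probes of both designs, where 9.32% of all bins were. They numbered 2 with scan day as a block (consensus correlation -0.13 for bins and 0.41 for genes) and from 0 to 1 when a tumour was left out. The 1 was called without ARF-128, where 0.597% of all bins were lower. Genes called lower numbered 4 with normexp (2.32% of all genes were lower), 15 with the sparser array (11.5%) and 15 on probes of both designs (11.9%). They numbered 0 with the scan day block, 0 with segment means and from 0 to 16 when a tumour was left out. The 16 were called without ARF-110, where 10.8% of all genes were lower. Genes called higher numbered 4 on probes of both designs (10.1% of all genes), 0 with the block, 0 with segment means and from 0 to 5 when a tumour was left out. The 5 were among 107 tested without ARF-110, where 11.1% of all genes were called higher. Over all genes the block left 3 called lower and 3 higher. The mean share of bins called gained was 7.69% at a call level of 0.15, all in ARF-112, and 0% under the other alternatives. The mean share called lost was 34.6% ± 46.9 (SD, n = 5) and ranged from 13.8% to 51.7%. The cause of these changes was not tested. No paired analysis was possible because all tumours form 1 group. Probe noise of 0.78 in ARF-128 and the 183 probes of the sparser design limit what can be seen there.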

Other observations

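The extremes of single tumours, among genes with at least 3 probes, gave the following. In ARF-128 the lowest gene was Cdc26, a subunit of the anaphase-promoting complex, at -1.30 on 3 probes, which measured -0.93 in ARF-129, -0.53 in ARF-104 and -0.29 in ARF-112. The transcript AK083154 was among the 3 lowest genes of ARF-104, ARF-112 and ARF-129, at -1.11, -0.65 and -0.97. In ARF-129 Frmd3, which encodes a protein with a FERM domain, was among the 3 lowest at -0.95 over 22 probes, with -0.85 in ARF-104, -0.23 in ARF-128, -0.16 in ARF-112 and -0.07 in ARF-110. BC012259, on 3 probes in the major urinary protein interval, was among the 3 highest genes of ARF-104 (0.53), ARF-112 (0.64) and ARF-129 (0.14).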
